A study of Mus musculus with 4 samples.

Results

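Autophagy genes were followed in rib chondrocytes of mice that retain misfolded matrilin-3 in the endoplasmic reticulum (ER), with and without the transcription factor XBP1. The list holds 40 genes of the core autophagy machinery, chosen by function and grouped by role, and 39 of them were measured among the 18193 genes of the array. *Optn*, a cargo receptor, had no probe set naming it alone and was not analysed here. Each gene was read from its brightest probe set, the one with the highest mean log2 signal over the 4 arrays. Of the 45037 probe sets in the data, 93 belong to the 39 genes.

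RNA of costochondral (rib) cartilage chondrocytes was measured on 4 arrays, 1 for each genotype, all from C57BL6/J mice at postnatal day 5. The double mutant (*Xbp1* Col2CreΔex2 *Matn3* V194D) lacks exon 2 of *Xbp1* in chondrocytes and carries the V194D mutation of matrilin-3, which models a form of multiple epiphyseal dysplasia. The *Matn3* mutant (*Xbp1* WT *Matn3* V194D) carries the mutation, homozygous in mice of this name, and keeps XBP1, the XBP1 null (*Xbp1* Col2CreΔex2) lacks XBP1 and has normal *Matn3*, and the wild type (*Xbp1* WT) has neither change. The Cre recombinase is driven by a *Col2a1* promoter, so the deletion is made in cells that use that promoter and other cells of the preparation keep *Xbp1*. Cells were released with collagenase, and each RNA sample was a pool of 3 extractions. With 1 array for each genotype there are no replicates, so a difference between 2 arrays has no test of its own, and how far animals of a genotype vary is unknown. An additive fit over the 4 arrays, which can be tested, is given after the genes.

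Autophagy encloses cytoplasm, aggregates or pieces of organelles in a double membrane, the autophagosome, and delivers them to the lysosome. The ULK1 kinase complex starts the process, a class III PI3 kinase complex built on Beclin 1 makes the lipid PI3P, and conjugation enzymes attach ATG8 proteins such as LC3 to the growing membrane, where cargo receptors such as p62 (*Sqstm1*) bind. In growth plate chondrocytes autophagy is known to take part in clearing collagen held in the ER, and the transcription factors TFEB and TFE3 are known to switch on autophagy and lysosome genes together.

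The promoters of the genes were searched for the letters that 4 stress-related factors are known to bind, on both strands, from 250 bases before to 50 after the start annotated by RefSeq (GRCm38.p6). Of the 40 genes, 33 had such a promoter, 39 promoters in all. The E-box CACGTG, the centre of the element bound by TFEB and TFE3, stood in 12.8% of these promoters, against 7.15% of all 32851 promoters. It was found in *Atg3*, *Atg5*, *Atg7*, *Atg14* and *Lamp1*. The core of the unfolded protein response element, TGACGTG, which spliced XBP1 and ATF6 bind, stood in *Atg4a* and *Nbr1* only, 5.13% of member promoters against 2.01% of all, and it shares the letters ACGTG with the E-box. The core of the NRF2 element, TGACNNNGC, was found in *Atg13*, *Map1lc3b* and *Ulk2*, 7.69% against 12.4%, and the ATF4 element TGATGNAA in 0% of member promoters against 3.97%. A match is a run of letters and not a measured binding site.

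Of these promoters, 5 are printed 5′ to 3′. *Ulk1* and *Atg16l2* are shown because they differed most between genotypes, with capitals for the 50 bases from the annotated start. *Atg4a* and *Nbr1* are shown for the XBP1 element, which is in capitals and reads CACGTCA on the strand of the gene. *Lamp1* is shown for its 4 E-boxes, in capitals.
Ulk1, chr5:110810032-110810331, minus strand: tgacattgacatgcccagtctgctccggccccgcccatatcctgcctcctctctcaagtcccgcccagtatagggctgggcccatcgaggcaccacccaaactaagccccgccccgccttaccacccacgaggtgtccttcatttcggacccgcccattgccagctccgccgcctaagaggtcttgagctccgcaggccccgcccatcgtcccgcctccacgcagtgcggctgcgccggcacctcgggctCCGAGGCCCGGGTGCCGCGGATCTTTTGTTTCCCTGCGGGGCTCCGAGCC
Atg16l2, chr7:101302039-101302338, minus strand: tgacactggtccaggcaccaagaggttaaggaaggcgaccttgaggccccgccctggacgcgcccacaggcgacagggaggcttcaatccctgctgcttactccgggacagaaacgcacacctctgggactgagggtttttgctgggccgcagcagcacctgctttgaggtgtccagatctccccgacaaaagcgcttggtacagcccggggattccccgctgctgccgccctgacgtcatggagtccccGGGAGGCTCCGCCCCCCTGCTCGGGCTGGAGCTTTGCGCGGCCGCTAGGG
Atg4a, chrX:140953595-140953894, plus strand: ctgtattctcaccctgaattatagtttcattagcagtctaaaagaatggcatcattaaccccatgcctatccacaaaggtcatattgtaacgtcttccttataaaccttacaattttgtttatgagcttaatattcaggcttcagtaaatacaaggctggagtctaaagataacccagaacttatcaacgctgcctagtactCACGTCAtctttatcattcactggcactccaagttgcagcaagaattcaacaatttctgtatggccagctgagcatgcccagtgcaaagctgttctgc
Nbr1, chr11:101551857-101552156, plus strand: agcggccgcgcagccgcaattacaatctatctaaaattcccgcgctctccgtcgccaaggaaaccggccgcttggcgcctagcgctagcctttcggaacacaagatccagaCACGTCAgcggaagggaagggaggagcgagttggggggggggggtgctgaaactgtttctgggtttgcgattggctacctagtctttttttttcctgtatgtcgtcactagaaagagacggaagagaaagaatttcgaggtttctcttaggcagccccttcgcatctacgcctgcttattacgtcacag
Lamp1, chr8:13158911-13159210, plus strand: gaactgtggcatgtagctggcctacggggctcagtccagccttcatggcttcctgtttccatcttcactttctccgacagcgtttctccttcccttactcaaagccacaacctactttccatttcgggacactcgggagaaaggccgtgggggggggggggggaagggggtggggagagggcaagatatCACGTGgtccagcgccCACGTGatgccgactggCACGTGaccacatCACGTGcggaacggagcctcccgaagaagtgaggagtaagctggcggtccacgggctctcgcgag

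The signals of the genes with the XBP1 element and of *Lamp1* were read first. *Nbr1*, a cargo receptor, had signals of 3590 in the double mutant, 3229 in the *Matn3* mutant, 2628 in the XBP1 null and 2985 in the wild type. *Lamp1*, a glycoprotein of the lysosomal membrane, had 6531, 6257, 6478 and 6379 in the same order of genotypes, a range of 1.04-fold, the narrowest among the 39 genes. *Atg4a*, a protease that trims ATG8 proteins, had 315 in the double mutant, 221 in the *Matn3* mutant, 400 in the XBP1 null and 285 in the wild type. Its highest signal was on the XBP1 null and its lowest on the *Matn3* mutant, 1.81-fold apart, a pair that differs by both changes and was not among the 5 comparisons made below.

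The arrays had the same median signal, 43.8, and between 8.36% and 10.9% of signals were under 1. The log2 signals of the arrays correlated between 0.956 and 0.974 over all probe sets. The brightest *Xbp1* probe set read 9548 in the double mutant, 11403 in the *Matn3* mutant, 7877 in the XBP1 null and 8183 in the wild type, but a 3′ expression array reads the end of a transcript, so this does not check the deletion of exon 2. Chondrocyte markers were high throughout, with a summed signal of 112916 in the double mutant, 108291 in the *Matn3* mutant, 104250 in the XBP1 null and 93954 in the wild type for 9 genes. Markers of other cell types differed between the pools. The 9 endothelial markers summed to 1235, 679, 5498 and 96.2 in the same order, the 10 macrophage and osteoclast markers to 3777, 2255, 2959 and 1813, and the 9 skeletal muscle markers to 2886, 2030, 2613 and 3246. The macrophage and muscle sums each rest on 1 bright gene, left out after its values were seen: without *Ctsk* the macrophage and osteoclast markers summed to 1063, 980, 1030 and 937, and without *Tnnt3* the muscle markers to 480, 201, 707 and 466. Of the muscle markers, 6 of 9 were over 1.5-fold higher and 0 lower in the XBP1 null than in the wild type, against 23.3% and 11.5% of all genes. Among the 6, *Myh3*, *Myh8* and *Ckm* were dim, at 3.59, 3.91 and 9.61 in the XBP1 null and 1.54, 0.837 and 4.61 in the wild type. In the *Matn3* mutant 1 muscle marker was higher and 6 were lower, against 21.2% and 19.3% of all genes. Of the osteoblast markers, 5 of 8 were measured and summed to 5266, 2627, 7826 and 5001, and of the erythroid markers 4 of 7, which summed to 34.5, 23.6, 210 and 127. Of the endothelial markers, 1 was under a signal of 1 on each array other than the XBP1 null. The 3 Y-linked genes measured were near or under a signal of 1 in the *Matn3* mutant pool alone. *Eif2s3y* read 855 in the double mutant, 0.032 in the *Matn3* mutant, 665 in the XBP1 null and 484 in the wild type, *Kdm5d* 237, 1.65, 212 and 151, and *Uty* 356, 0.904, 233 and 135. *Xist*, expressed in females, read 4101 in the double mutant, 9718 in the *Matn3* mutant, 5262 in the XBP1 null and 7393 in the wild type. In comparisons with the *Matn3* mutant, the sex of the pooled mice and the genotype cannot be told apart. In the double mutant over the wild type, *Eif2s3y*, *Kdm5d* and *Uty* were at 0.82, 0.64 and 1.40 on the log2 scale, and *Xist* at -0.85. In the XBP1 null over the wild type they were at 0.46, 0.49, 0.79 and -0.49. The part of sex in these comparisons was not tested. In a pooled sample, fewer cells of a type and less RNA per cell cannot be told apart.

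Read from their brightest probe sets, the autophagy genes varied little across the genotypes. Of the 39, 31 stayed within 1.5-fold over all 4 arrays, against 35.2% of all genes and 53% of the genes at or above the median signal, a group to which 36 of the 39 belong. The median range of an autophagy gene over the arrays was 0.41 on the log2 scale, against 0.80 for all genes and 0.56 for genes at or above the median. Over 5 comparisons, 12 of 195 differences were larger than 1.5-fold, in 7 genes: *Ulk1*, *Uvrag*, *Ambra1*, *Atg7*, *Atg16l2*, *Gabarapl1* and *Wdfy3*. Differences over 2-fold were seen for *Ulk1* and *Atg16l2*, and the share of all genes over 2-fold was not counted. The shares of all genes past 1.5-fold stand with each comparison below, and dimmer probe sets of the autophagy genes differed more often. The cut-off leaves close neighbours on either side: *Gabarapl1* in the double mutant was 1.53-fold over the wild type, while *Wipi1*, which binds PI3P on the forming membrane, was 1.49-fold higher in the double mutant than in the XBP1 null and is not counted.

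**Figure D1:**
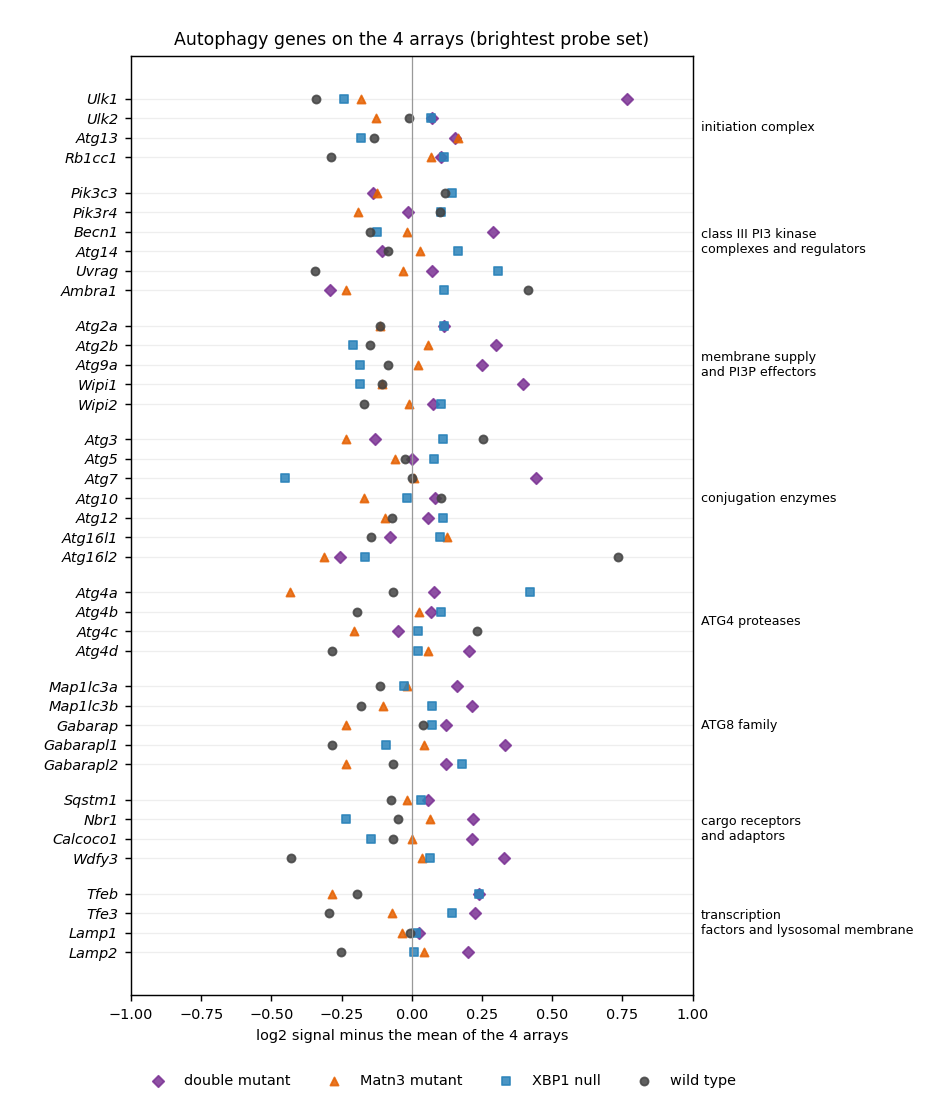
Log2 signal of each of the 39 autophagy genes on each array, less the mean of that gene over the 4 arrays, with genes grouped by role (1 array per genotype, so no error bars). Most genes lie within a narrow band, while *Ulk1* is set apart in the double mutant and *Atg16l2* in the wild type.

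The first comparison asks what retained mutant matrilin-3 does where XBP1 is present. In the *Matn3* mutant against the wild type, 0 autophagy genes were over 1.5-fold higher, against 21.2% of all genes and 11.6% of those at or above the median, and 2 were lower, *Ambra1* and *Atg16l2*, against 19.3% and 15.8%. The median difference of the 39 genes was 0.07 on the log2 scale, against 0.00 for all genes, and 23 of them were above 0. This small offset had no fixed direction, as the median was -0.07 when each gene was read as the median of its probe sets.

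The second comparison asks what the loss of XBP1 does in cartilage with normal matrilin-3. In the XBP1 null against the wild type, *Uvrag* was over 1.5-fold higher, 1 gene of 39 against 23.3% of all genes and 17.1% of those at or above the median. *Atg16l2* was lower, again 1 of 39, against 11.5% and 4%. The median difference was 0.10, near the 0.09 of all genes, and after quantile normalization it was -0.02 with 17 of 39 genes above 0.

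In the double mutant against the wild type, 3 genes were over 1.5-fold higher, *Ulk1*, *Gabarapl1* and *Wdfy3*, against 24.1% of all genes and 13.7% of those at or above the median. *Ambra1* and *Atg16l2* were lower, 2 genes against 12.1% and 5.21%. The autophagy genes had a median difference of 0.27, against 0.13 for all genes and 0.12 for those at or above the median, and 31 of 39 were above 0, against 62.3% of the genes at or above the median. After quantile normalization the median was 0.19, against 0.06 for all genes. With the median of probe sets it was 0.09, against 0.07 for all genes, with 22 of 39 above 0, and the offset from all genes was not seen on that reading.

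The last comparisons set the double mutant beside each of its parents. Against the *Matn3* mutant, *Ulk1* was higher and 0 genes were lower, where 17.4% of all genes were higher and 9.03% lower, and 9.71% and 2.13% of genes at or above the median. Although 34 of 39 genes had a higher signal in the double mutant, against 74.7% of the genes at or above the median, their median of 0.18 was close to the 0.15 of all genes, and was 0.06 after quantile normalization, with 25 of 39 above 0. Against the XBP1 null, *Ulk1* and *Atg7* were higher and 0 genes were lower, where 16.6% of all genes were higher and 16.9% lower, and 4.64% and 8.24% of genes at or above the median. The median of the 39 was 0.01, with 21 above 0. After leaving out probe sets of suffix _s_at, _x_at or _a_at it was -0.01 over 33 genes.

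**Figure D2:**
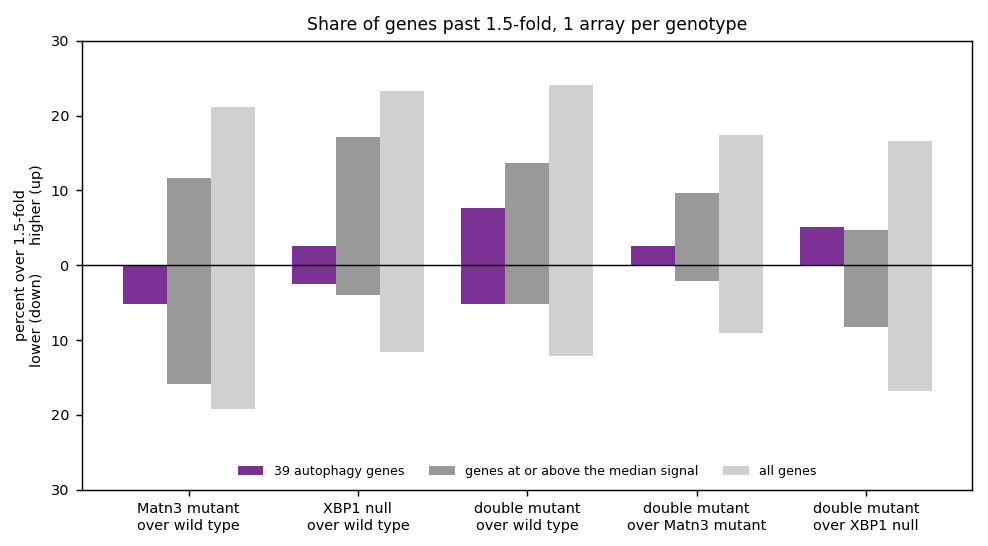
Percent of genes over 1.5-fold higher (up) or lower (down) in each of 5 comparisons, for the 39 autophagy genes, the 9097 genes at or above the median signal and all 18193 genes (1 array per genotype). In the *Matn3* mutant 0 autophagy genes were higher, against 11.6% of genes at or above the median.

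The double mutant had the highest signal of the 4 arrays for 19 of the 39 genes, against 30.4% of all genes and 31% of those at or above the median. The XBP1 null was highest for 13, the *Matn3* mutant for 2 and the wild type for 5. The wild type was lowest for 16 genes, the *Matn3* mutant for 13, the XBP1 null for 7 and the double mutant for 3. Except for the highest on the double mutant, the shares of all genes were not counted, so no trait of autophagy genes is read from these counts. The count for the double mutant was 19 after quantile normalization too, against 26.8% of all genes. It was 14 of 39 with the median of probe sets, against 27.6%. Without probe sets of suffix _s_at, _x_at or _a_at it was 12 of 33, against 28.7%. Ties were left out of these shares. Macrophage and osteoclast markers also summed to their highest on the double mutant, 3777 against 1813 in the wild type, mostly through *Ctsk*, and without it to 1063 and 937. Their part in this count was not tested.

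Among the 4 genes of the initiation complex, *Ulk1*, the kinase that starts autophagosome formation, differed most. Its signal was 719 in the double mutant, 373 in the *Matn3* mutant, 358 in the XBP1 null and 334 in the wild type. The 3 other genotypes lay close together and the double mutant stood apart from them, by 1.11 on the log2 scale over the wild type, 0.95 over the *Matn3* mutant and 1.01 over the XBP1 null. A second *Ulk1* probe set did not follow it: it read 99.9 in the double mutant, 15.2 in the *Matn3* mutant, 24.1 in the XBP1 null and 98.9 in the wild type. On this dimmer probe set the double mutant and the wild type were alike and each mutation alone was lower. *Ulk2*, a related kinase, ranged by 1.14-fold over the arrays, the scaffold *Atg13* by 1.27-fold and *Rb1cc1* (FIP200) by 1.32-fold. *Rb1cc1* read 699 in the double mutant, 682 in the *Matn3* mutant, 705 in the XBP1 null and 533 in the wild type, where it was lowest. The next *Rb1cc1* probe set read 489, 423, 574 and 291 in the same order. It was also lowest in the wild type, but differed more, by 0.98 in the XBP1 null over the wild type.

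The PI3 kinase complexes and their regulators showed differences in opposite directions. *Ambra1*, a regulator that binds Beclin 1, had signals of 279 in the double mutant, 290 in the *Matn3* mutant, 369 in the XBP1 null and 454 in the wild type. Both genotypes with mutant matrilin-3 were lowest, at -0.70 for the double mutant and -0.65 for the *Matn3* mutant over the wild type, while the XBP1 null lay between them and the wild type at -0.30. The other *Ambra1* probe sets were also lowest in the double mutant and highest in the wild type. The first read 89.5 in the double mutant, 159 in the *Matn3* mutant, 107 in the XBP1 null and 223 in the wild type, and the second 29.5, 39.8, 35.7 and 74 in the same order. All 3 probe sets of this gene thus had lower signal in each mutant than in the wild type.

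*Uvrag*, a Beclin 1 partner of the complex that acts on endosomes and late autophagosomes, had signals of 1184 in the double mutant, 1103 in the *Matn3* mutant, 1394 in the XBP1 null and 887 in the wild type. It was highest in the XBP1 null, by 0.65 over the wild type, and lowest in the wild type. The XBP1 null pool also had the highest endothelial signal, 5498 against 96.2 in the wild type, and its part in the *Uvrag* difference was not tested. The difference fell below 1.5-fold after quantile normalization. *Becn1* (Beclin 1) read 2516 in the double mutant, 2035 in the *Matn3* mutant, 1889 in the XBP1 null and 1857 in the wild type, a range of 1.35-fold with the double mutant highest. Its other probe sets did not agree. Over the wild type they were between -0.51 and 1.17 in the *Matn3* mutant and between 0.04 and 1.71 in the double mutant. Some were highest in the XBP1 null. The lipid kinase *Pik3c3* (VPS34), its partner *Pik3r4* and *Atg14*, which directs the complex to the forming membrane, ranged by 1.22-fold, 1.23-fold and 1.21-fold.

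The 5 genes that supply membrane or bind PI3P were all above the wild type in the double mutant, by a median of 0.33 and between 0.23 and 0.50, with 0 past 1.5-fold. Of the genes at or above the median signal, 62.3% were above the wild type too. *Wipi1* gave the widest range, with 1943 in the double mutant, 1371 in the *Matn3* mutant, 1301 in the XBP1 null and 1373 in the wild type. The double mutant was apart from 3 nearly equal arrays, as for *Ulk1*, but the 5 other *Wipi1* probe sets were between -0.53 and -0.23 in the double mutant over the wild type. *Atg2b*, a lipid transfer protein, read 497 in the double mutant, 420 in the *Matn3* mutant, 349 in the XBP1 null and 364 in the wild type. *Atg2a*, *Atg9a*, the scramblase of the vesicles that seed the membrane, and *Wipi2* ranged by 1.17-fold, 1.36-fold and 1.21-fold. In the double mutant over the wild type, the other probe sets of *Wipi2* were at -0.15 and -0.17. Those of *Atg2b* were at 1.11 and -1.86, the last near the floor.

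The largest difference among the 39 genes in the *Matn3* mutant was that of *Atg16l2*, a homologue of ATG16L1, which holds the ATG12-ATG5 conjugate at the membrane. Its signal was 535 in the double mutant, 514 in the *Matn3* mutant, 569 in the XBP1 null and 1062 in the wild type. The 3 mutants were nearly equal, at -0.99, -1.05 and -0.90 over the wild type on the log2 scale, so that the fall seen with each mutation alone was not larger with both. The dimmer probe set of the gene read 88.4 in the double mutant, 67.2 in the *Matn3* mutant, 55.8 in the XBP1 null and 72.1 in the wild type, and none of its differences from the wild type was past 1.5-fold. *Atg16l1*, the member of the pair that acts in bulk autophagy, ranged by 1.21-fold and was lowest in the wild type.

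Of the remaining conjugation enzymes, *Atg7* passed 1.5-fold in 1 comparison. *Atg7*, the enzyme that activates both ATG12 and ATG8 proteins, was among the dimmest of the 39, with signals of 87.4 in the double mutant, 64.8 in the *Matn3* mutant, 47.1 in the XBP1 null and 64.5 in the wild type. It was 0.89 higher in the double mutant than in the XBP1 null, and neither of these was past 1.5-fold from the wild type. *Atg3*, the E2-like enzyme of the ATG8 proteins, read 2361 in the double mutant, 2200 in the *Matn3* mutant, 2795 in the XBP1 null and 3084 in the wild type, lowest with mutant matrilin-3 and highest in the wild type. *Atg5* ranged by 1.1-fold, *Atg12* by 1.15-fold and *Atg10*, the E2-like enzyme of ATG12, by 1.21-fold. The other *Atg5* probe sets were not level: in the *Matn3* mutant over the wild type they were at -0.61 and -0.69. Those of *Atg12* were at -0.38 and 0.34.

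The ATG4 proteases prime and recycle ATG8 proteins. Besides *Atg4a*, *Atg4b* ranged by 1.23-fold, *Atg4c* by 1.35-fold and *Atg4d* by 1.41-fold. In the *Matn3* mutant over the wild type, the other probe sets of *Atg4b* were at -0.94 and 2.17, the last near the floor. *Atg4c* read 217 in the double mutant, 195 in the *Matn3* mutant, 228 in the XBP1 null and 264 in the wild type, where it was highest. *Atg4d* read 66.4 in the double mutant, 60 in the *Matn3* mutant, 58.6 in the XBP1 null and 47.3 in the wild type, where it was lowest.

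All 5 ATG8 genes, whose proteins are tied to the autophagosome membrane, were above the wild type in the double mutant, with a median of 0.28 and a range of 0.09 to 0.62. Of the genes at or above the median signal, 62.3% were above it too. *Gabarapl1* passed 1.5-fold, with signals of 4735 in the double mutant, 3880 in the *Matn3* mutant, 3527 in the XBP1 null and 3089 in the wild type. Its other probe set had the same order at the ends, with 3570 in the double mutant, 2764 in the *Matn3* mutant, 2755 in the XBP1 null and 2579 in the wild type. *Map1lc3b* (LC3B), the usual marker of autophagosomes, was also highest in the double mutant and lowest in the wild type. It read 8490 in the double mutant, 6825 in the *Matn3* mutant, 7692 in the XBP1 null and 6460 in the wild type. Of its other probe sets, the dimmest went the opposite way, with 73.9 in the double mutant, 111 in the *Matn3* mutant, 126 in the XBP1 null and 150 in the wild type. Another read 3732 in the double mutant, 2673 in the *Matn3* mutant, 3749 in the XBP1 null and 2804 in the wild type, and so was lowest in the *Matn3* mutant. *Map1lc3a* ranged by 1.21-fold with the same extremes, while *Gabarap* and *Gabarapl2*, at 1.28-fold and 1.33-fold, were lowest in the *Matn3* mutant. In the double mutant over the wild type, the other probe set of *Map1lc3a* was at -0.01 and that of *Gabarapl2* at 0.86.

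Of the cargo receptors and adaptors, *Wdfy3* (ALFY), a scaffold that brings p62-bound aggregates to the autophagy machinery, read 566 in the double mutant, 462 in the *Matn3* mutant, 472 in the XBP1 null and 335 in the wild type. Each mutant was higher than the wild type, by 0.76, 0.46 and 0.50, and the double mutant passed 1.5-fold. The gene had 5 probe sets and they did not move together: the dimmest read 10.4 in the double mutant, 14.5 in the *Matn3* mutant, 9.8 in the XBP1 null and 36.9 in the wild type, and the median of the 5 gave -0.23 for the double mutant over the wild type. *Sqstm1* (p62), the receptor of ubiquitinated cargo and itself a target of NRF2, was bright and level, with 10152 in the double mutant, 9653 in the *Matn3* mutant, 9985 in the XBP1 null and 9263 in the wild type. Its second probe set read 556 in the double mutant, 1038 in the *Matn3* mutant, 605 in the XBP1 null and 2763 in the wild type. This probe set was at least 1.41 lower on the log2 scale in each mutant, while the bright one was within 0.13 of the wild type. *Calcoco1*, a receptor for the ER, ranged by 1.28-fold.

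**Figure D3:**
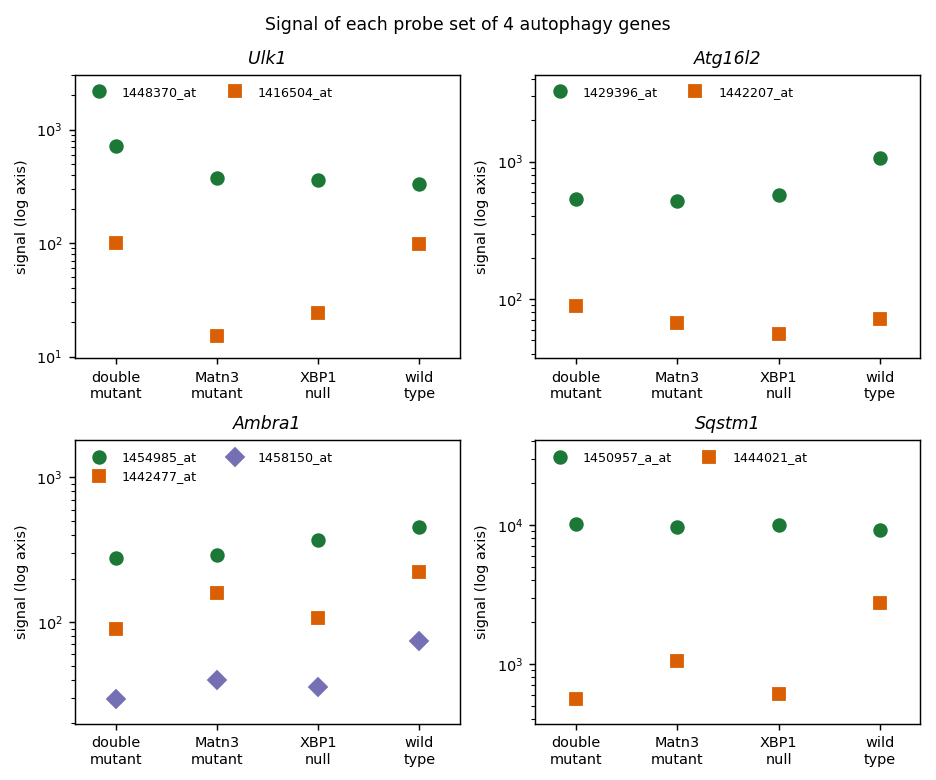
Signal (log axis) of each probe set of *Ulk1*, *Atg16l2*, *Ambra1* and *Sqstm1* on the 4 arrays, 1 array per genotype. The 3 *Ambra1* probe sets are all highest in the wild type, while the probe sets of *Ulk1* and of *Sqstm1* do not follow each other.

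The transcription factors were lower in the *Matn3* mutant than in the double mutant. *Tfe3* read 690 in the double mutant, 562 in the *Matn3* mutant, 652 in the XBP1 null and 482 in the wild type. *Tfeb* read 157 in both genotypes lacking XBP1, against 109 in the *Matn3* mutant and 116 in the wild type. Both genes were thus higher on the arrays without XBP1 than on those with it, and neither passed 1.5-fold in any of the 5 comparisons. Most genes at or above the median signal went the same way. Of these, 74.7% were higher in the double mutant than in the *Matn3* mutant, and 5557 of 9097 in the XBP1 null than in the wild type. *Lamp2*, a lysosomal membrane protein needed for fusion with autophagosomes, was 7342 in the double mutant, 6593 in the *Matn3* mutant, 6437 in the XBP1 null and 5371 in the wild type.

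The dimmer probe sets of the same genes gave another picture. Of the 93 probe sets, 8 were over 1.5-fold higher and 17 lower in the *Matn3* mutant against the wild type, where 22% and 20.8% of all probe sets were. In the XBP1 null 7 were higher and 15 lower, against 21.6% and 17.5%, and in the double mutant 11 were higher and 11 lower, against 22.8% and 19.2%. The wild type was the highest array for 24 of the 93, against 26.1% of all probe sets. Of the 93, 54 were not the brightest of their gene, and these made up most of the differences both ways. They were 8 of 8 higher and 15 of 17 lower in the *Matn3* mutant, 6 of 7 and 14 of 15 in the XBP1 null, and 8 of 11 and 9 of 11 in the double mutant. In 4 genes, *Atg2b*, *Wipi2*, *Atg4b* and *Wdfy3*, probe sets of the same gene were past 1.5-fold in opposite directions in at least 1 comparison.

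The 4 arrays form a square of *Matn3* mutation and XBP1 loss, so an additive model in limma leaves 1 residual degree of freedom. At an adjusted p of 0.05 it called 0 of the 45037 probe sets for either change, 0% of those tested for the *Matn3* mutation and 0% for XBP1 loss, and therefore 0 autophagy genes. At an unadjusted p under 0.05 the *Matn3* term held 3381 probe sets (7.51%) and the XBP1 term 2052 (4.56%). Among the 39 genes these numbers were 0 and 1. The gene was *Atg4a*, with an effect of XBP1 loss of 0.50 ± 0.11 (SE, log2) and an adjusted p of 0.819 in limma. For *Ulk1* the fit gave 0.58 ± 0.31 for the mutation (adjusted p of 0.666) and 0.52 ± 0.31 for XBP1 loss (0.819). For *Atg16l2* it gave -0.57 ± 0.35 and -0.42 ± 0.35, with adjusted p of 0.681 and 0.821, and for *Ambra1* -0.52 ± 0.13 and -0.18 ± 0.13, with 0.635 and 0.819. The model adds the effects of the mutations, and genes that depart from this, such as *Ulk1* and *Atg16l2*, carry the departure in their error. The effect of XBP1 loss had a median of 0.14 over the 39 genes, with 31 above 0, but 0.00 with 19 above 0 after quantile normalization. The effect of the mutation had a median of 0.05 with 22 above 0, and 0.11 with 26 above 0.

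Other genes around autophagy were counted by list, to be read against the shares of genes at or above the median that were higher and lower than in the wild type: 11.6% and 15.8% in the *Matn3* mutant, 17.1% and 4% in the XBP1 null, and 13.7% and 5.21% in the double mutant. Of 23 further autophagy genes, the *Matn3* mutant had 0 over 1.5-fold higher and 2 lower, with 3 higher and 0 lower in the XBP1 null, and 3 higher and 0 lower in the double mutant, each against the wild type. The lower ones included *Vps16*, a subunit of the tethering complexes that fuse vesicles with lysosomes, at -0.65. Of 26 lysosomal hydrolases and related genes, the *Matn3* mutant had 0 higher and 2 lower, with a median of -0.24 against -0.07 for genes at or above the median signal. The 2 were *Gla* (alpha-galactosidase), at -0.81, and *Neu1* (sialidase), at -0.76. In the double mutant over the *Matn3* mutant 22 of the 26 were above 0, with a median of 0.23 against 0.19 for genes at or above the median. Of 14 subunits of the vacuolar ATPase, which acidifies the lysosome, 0 were past 1.5-fold in the *Matn3* mutant. Of 12 genes in a list of receptors for mitochondria and ER and related genes, only *Tollip* was, at 0.73.

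Regulators that act on autophagy from outside were counted against the same shares of genes at or above the median. Among 25 regulators of MTORC1 and AMPK, the kinases that hold back and start autophagy, the double mutant had 3 over 1.5-fold higher and 0 lower, the *Matn3* mutant 4 and 4, and the XBP1 null 3 and 1, each over the wild type. *Fnip2*, a partner of folliculin, read 2409 in the double mutant, 2521 in the *Matn3* mutant, 4005 in the XBP1 null and 930 in the wild type. *Sesn2*, a stress-induced inhibitor of MTORC1, read 354 in the double mutant, 392 in the *Matn3* mutant, 218 in the XBP1 null and 161 in the wild type, while *Sesn1* read 745, 559, 647 and 997 in the same order. *Sesn2* was thus highest where matrilin-3 was mutant, and *Sesn1* was highest in the wild type. Of 9 genes listed as NRF2 targets, among them NRF2 itself (*Nfe2l2*) and its inhibitor *Keap1*, the *Matn3* mutant had 4 higher and 1 lower. The lower one was *Keap1*, at -0.62. There were 5 higher and 0 lower in the XBP1 null, and 3 higher and 1 lower in the double mutant. *Nfe2l2* was among the higher genes in each, at 0.67 in the *Matn3* mutant, 1.11 in the XBP1 null and 1.16 in the double mutant. *Txnrd1* (thioredoxin reductase) was 1.28 higher in the double mutant, 1.10 in the *Matn3* mutant and 0.76 in the XBP1 null, each over the wild type. In the *Matn3* mutant 5 of the 9 were below 0: *Keap1*, *Nqo1* (-0.50), *Gclc* (-0.38), *Hmox1* (-0.29) and *Gclm* (-0.14). The lower gene in the double mutant was *Gclc*, at -0.90. The list had medians of -0.14 in the *Matn3* mutant, 0.76 in the XBP1 null and 0.30 in the double mutant. Genes at or above the median signal had -0.07, 0.11 and 0.12.

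**Figure D4:**
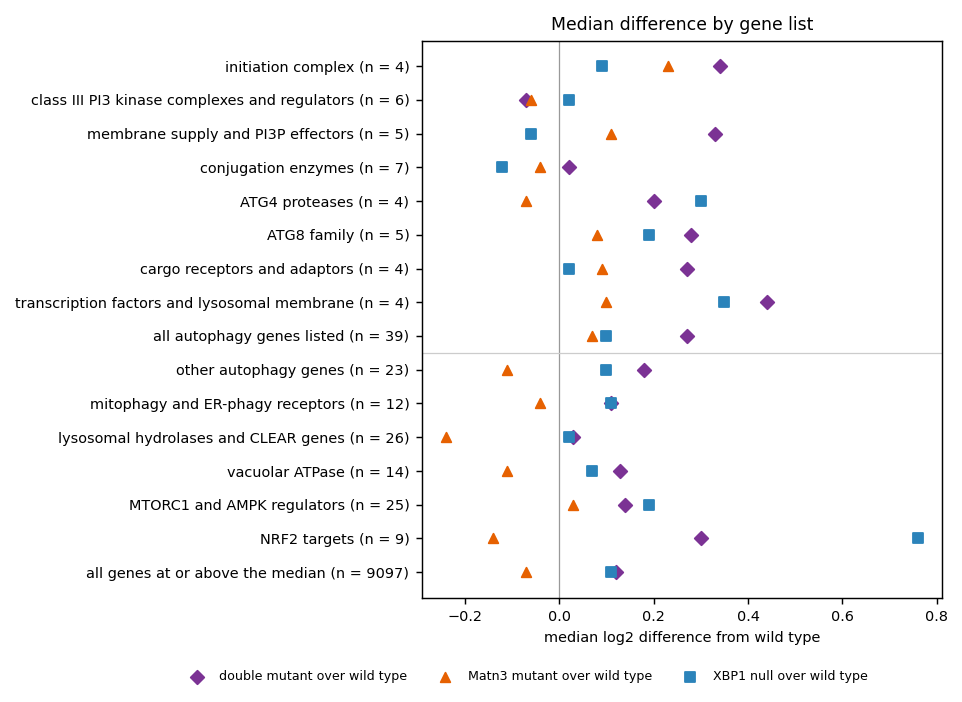
Median log2 difference from the wild type for each role group of autophagy genes (above the line), for related gene lists and for genes at or above the median signal (below it), with the number of genes in parentheses. The 39 autophagy genes have medians of 0.27 in the double mutant, 0.07 in the *Matn3* mutant and 0.10 in the XBP1 null.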

How the data were processed

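Signals of 4 Affymetrix Mouse430_2 arrays, 1 for each genotype, were used. The authors deposited linear signal intensity for each probe set. The sources used here do not describe the summarisation of probes or the normalisation. For these arrays the study named Microarray Suite 5 for control hybridisations, and PPLR with a fold change of 1.5, which needs errors of single probes and was not run. Intensities under 1 were set to 1 and taken as log2. Gene names came from the platform annotation: 34945 probe sets name 1 gene, 932 several and 9160 none, and those with several or none were not used for genes. Each gene was represented by its probe set of highest mean log2. Differences were taken in 5 comparisons and counted past 1.5-fold, beside the same count over all genes. An additive model was fitted with limma 3.58.1 in R 4.3.3 (eBayes with trend, Benjamini-Hochberg over all probe sets, threshold 0.05), after a test on simulated data. Counting was done in Python 3.11.15 (pandas 2.3.3, numpy 2.4.6). All listed genes are named, and those past 1.5-fold are given on every array. Of the related lists, up to 4 genes with the largest difference in the *Matn3* mutant were to be named. Not all of these were. *Keap1* and other genes of the NRF2 list outside those 4 were named after their values were seen. The genes and lists were chosen with earlier results of these data known. *Atg4a*, *Becn1* and other genes within 1.5-fold that are given on every array were chosen after their values were seen. Alternatives were 2 scalings, a floor at the 25th percentile, the median of probe sets, a choice without probe sets of suffix _s_at, _x_at or _a_at, and a filter on dim genes, and for the fit no trend, brighter probe sets only and quantile normalization. The number of arrays limits the precision.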

Additional observations from a re-analysis of the deposited data

Results flagged for a closer look

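On 3 dimmer probe sets the effect of a mutation had opposite signs on the backgrounds with and without the other mutation, by over 1.5-fold each way. Each effect is a difference of 1 array from 1 other, and the difference between the effects was not tested. On the dimmer *Ulk1* probe set the loss of XBP1 gave a log2 difference of 2.72 with the *Matn3* mutation and -2.04 without it, and the *Matn3* mutation gave 2.05 without XBP1 and -2.70 with it. On the dimmest *Atg4b* probe set, whose signals were between 1.06 and 4.79, the loss of XBP1 gave -1.19 with the mutation and 2.10 without it, and the mutation gave -1.12 without XBP1 and 2.17 with it. On an *Atg7* probe set with signals between 1.12 and 8.65, the mutation gave 1.0 without XBP1 and -1.93 with it. The signals of the *Atg4b* and *Atg7* probe sets lie far under the array median of 43.8 and near the floor of 1, so no direction is read from them. None of the 3 was the brightest probe set of its gene.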

How the results depend on the processing

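The 12 differences past 1.5-fold had 36 values under quantile normalization, the median of probe sets and the choice without some suffixes: 26 stayed past 1.5-fold in the same direction, 9 did not and 1 changed sign, that of *Wdfy3* in the double mutant over the wild type, which was -0.23 with the median of probe sets. With that median the counts of genes over 1.5-fold higher and lower were 1 and 7 in the *Matn3* mutant and 3 and 6 in the XBP1 null, each over the wild type, 4 lower in the double mutant over the wild type, 3 and 3 in the double mutant over the *Matn3* mutant, and 4 and 2 over the XBP1 null. Without probe sets of suffix _s_at, _x_at or _a_at, which left 33 genes, 1 was higher in the *Matn3* mutant and 2 lower in the XBP1 null, each over the wild type, and 1 was lower in the double mutant over the *Matn3* mutant. After quantile normalization 0 were higher in the XBP1 null over the wild type. The shares of all genes past 1.5-fold were not counted under these alternatives, so no trait of autophagy genes is read from these counts. Centring, the higher floor and the filter at the median of probe sets could hardly change a count, since the arrays have equal medians and the filter kept all 39 genes. With the 36 genes at or above the median of genes, 1 and not 2 was higher in the double mutant over the XBP1 null. The additive fit called 0 of the 39 genes under all 3 of its alternatives. With brighter probe sets only it called 13 of 22519 probe sets for the *Matn3* mutation. No paired analysis was possible because each genotype has 1 array. For the same reason no array could be left out, and signal near the floor limits the dimmer probe sets.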
